A study of Mus musculus with 9 samples.

Results

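The RNA of 10 genes of the NRF2 pathway and of antioxidant defence was followed in mouse liver. They were chosen by name: Nfe2l2, Nqo1, Gclc, Gclm, Hmox1, Txnrd1, Srxn1, Cat, Sod2 and Gpx1. All 10 were found among the 23444 rows of each table, and all 10 passed the filter on low values. The 9 libraries are RNA sequencing of whole liver from C57Bl6 mice in 3 groups of 3. Young livers came from untreated mice of 2 months, aged livers from untreated mice of 20 to 22 months, and treated livers from mice of 20 to 22 months that ate chow with PD-0332991 for 2 weeks (450 in the labels, with the unit written mg/k). PD-0332991 is palbociclib, which blocks the kinases CDK4 and CDK6 that drive entry into the cell cycle. The untreated mice had standard chow, and no genetic change is given for any group. Each label speaks of 1 mouse but does not say that a group's mice differ, and the tests then weigh differences only against library-to-library spread. Values are TPM (transcript abundance scaled to a fixed total per library), a relative abundance per transcript length that carries no sequencing depth.

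NRF2, the protein of Nfe2l2, is a transcription factor that KEAP1 holds in the cytoplasm and hands to a CUL3 ubiquitin ligase for breakdown. Reactive electrophiles and oxidants modify KEAP1, and NRF2 then accumulates, pairs with small MAF proteins and binds antioxidant response elements in its target genes. Its activity is set largely by protein stability, which RNA levels do not measure. In the liver its targets make glutathione, recycle thioredoxin, break down heme and reduce quinones, while catalase, glutathione peroxidase and superoxide dismutase remove peroxides and superoxide directly.

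The sequence before the start site was searched for the core of the antioxidant response element, because NRF2 binds this element in its target genes. The RefSeq promoter table (GRCm38.p6) held 8 of the 10 genes, with 10 start sites in all, and not Gclc and Hmox1. In the 250 bases before each start, TGACNNNGC and TGAGNNNGC were searched on both strands. Matches to these motifs did not overlap in the members. A match was found at 4 of the 10 start sites, and at 23.0% of all 32851 start sites (10.2% for the first and 14.4% for the second motif). A match is a description of the letters, not a binding site. The matched windows are shown with the match in capitals, together with that of Cat, which holds none. For Txnrd1 the second of its 3 listed start sites is shown.
Nfe2l2, chr2:75704664-75704913, minus strand: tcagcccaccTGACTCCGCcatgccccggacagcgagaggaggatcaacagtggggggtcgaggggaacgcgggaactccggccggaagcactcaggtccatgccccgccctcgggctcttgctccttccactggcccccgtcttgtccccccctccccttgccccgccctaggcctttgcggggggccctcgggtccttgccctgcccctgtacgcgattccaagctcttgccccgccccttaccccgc
Gclm, chr3:122245307-122245556, plus strand: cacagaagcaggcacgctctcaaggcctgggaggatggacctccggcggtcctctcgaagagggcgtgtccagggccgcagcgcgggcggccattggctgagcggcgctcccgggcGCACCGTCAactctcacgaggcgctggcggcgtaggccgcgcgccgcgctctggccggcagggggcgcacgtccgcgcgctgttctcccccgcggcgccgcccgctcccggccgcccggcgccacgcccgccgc
Txnrd1, chr10:82858956-82859205, plus strand: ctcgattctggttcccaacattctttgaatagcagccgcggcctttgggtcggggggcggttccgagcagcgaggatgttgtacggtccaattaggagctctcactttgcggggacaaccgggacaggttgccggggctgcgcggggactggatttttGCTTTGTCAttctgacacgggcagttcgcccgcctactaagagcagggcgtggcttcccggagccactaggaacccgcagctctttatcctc
Srxn1, chr2:152105274-152105523, plus strand: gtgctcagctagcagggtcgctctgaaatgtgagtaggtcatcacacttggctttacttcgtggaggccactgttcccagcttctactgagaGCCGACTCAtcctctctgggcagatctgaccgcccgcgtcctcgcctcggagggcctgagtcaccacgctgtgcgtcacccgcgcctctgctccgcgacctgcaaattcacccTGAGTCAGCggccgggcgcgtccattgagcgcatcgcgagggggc
Cat, chr2:103485154-103485403, minus strand: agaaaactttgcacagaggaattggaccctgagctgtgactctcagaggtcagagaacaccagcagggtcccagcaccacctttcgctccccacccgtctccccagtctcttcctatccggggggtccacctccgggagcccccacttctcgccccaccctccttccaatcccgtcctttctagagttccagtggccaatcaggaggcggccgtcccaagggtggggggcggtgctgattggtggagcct
The match lies 240 to 232 bases before the start in Nfe2l2, 134 to 126 in Gclm and 92 to 84 in Txnrd1. Srxn1 has 2 matches, at 158 to 150 and at 45 to 37 bases. Nqo1, Sod2 and Gpx1 had no match in this window.

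Between libraries, correlations over all genes tested on the log2(TPM + 0.5) scale were 0.970 to 0.990 within a group and 0.964 to 0.982 between groups. The listed values summed to 53.1% to 57.7% of the full TPM scale. The albumin gene Alb, a hepatocyte marker, had the value 0 in every library, while the 8 hepatocyte markers together, Ttr, Apoa1 and Cps1 among them, summed to between 20127 and 25907 TPM. Aged replicate 1 stood apart within its group: its 16 acute phase genes, which the liver secretes in inflammation, summed to 33002 TPM, against 14487 and 9227 TPM in aged replicates 2 and 3. Where leaving it out ended or made a call among the members, or moved a member's difference by more than 1.5 times, the value without it is given below. Leaving out other libraries also moved differences, and for Gclc, Txnrd1 and Cat the range over all libraries left out in turn is given.

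At the RNA level Gpx1 was the most abundant of the 10 genes, with a mean of 2145 TPM over the 9 libraries, above 99.9% of the listed genes. Cat followed with 733 TPM, then Gclc (70.3), Gclm (67.0), Sod2 (54.2), Txnrd1 (38.0), Nfe2l2 (18.0), Srxn1 (15.4), Hmox1 (11.7) and Nqo1 (4.63 TPM). In this order the ranges over libraries did not overlap between Gpx1 and Cat, Cat and Gclc, Sod2 and Txnrd1, or Txnrd1 and Nfe2l2. They did overlap for each of the other neighbouring pairs. The range of Nqo1 (3.37 to 6.15 TPM) overlapped that of Hmox1 (5.45 to 19.2 TPM) but lay wholly below those of Nfe2l2 and Srxn1.

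The 10 genes did not move as a block. Compared with young livers, treated ones had higher Hmox1 and Txnrd1 and lower Gclc, Gclm and Cat, and Nfe2l2 itself was level. Each step taken alone, age or drug, gave no call. In aged against young livers 0 of the 10 passed (limma, adjusted p under 0.05 over all 10161 genes tested), where 1.1% of all genes did. An unadjusted p under 0.05 was reached there by 3 members, Gclc, Cat and Txnrd1, and by 15.0% of all genes. In treated against aged livers again 0 passed, against 1.45% of all genes, and 4 members, Hmox1, Gclm, Nqo1 and Gpx1, had an unadjusted p under 0.05 (18.2% of all genes). In treated against young livers 5 of the 10 were called, against 6.88% of all genes: 2 rose and 3 fell, where 2.59% of all genes rose and 4.29% fell. The same 5 had an unadjusted p under 0.05, as did 24.8% of all genes. The count of 5 called members fell when any 1 young or treated library was left out, with each of the 5 keeping its direction. It was 0 without treated replicate 2 and 1 without young replicate 1, young replicate 3 or treated replicate 3. It was 2 without treated replicate 1 and 3 without young replicate 2. This last comparison differs in both age and drug, which cannot be told apart in it, and the comparisons share libraries with each other.

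**Figure D1:**
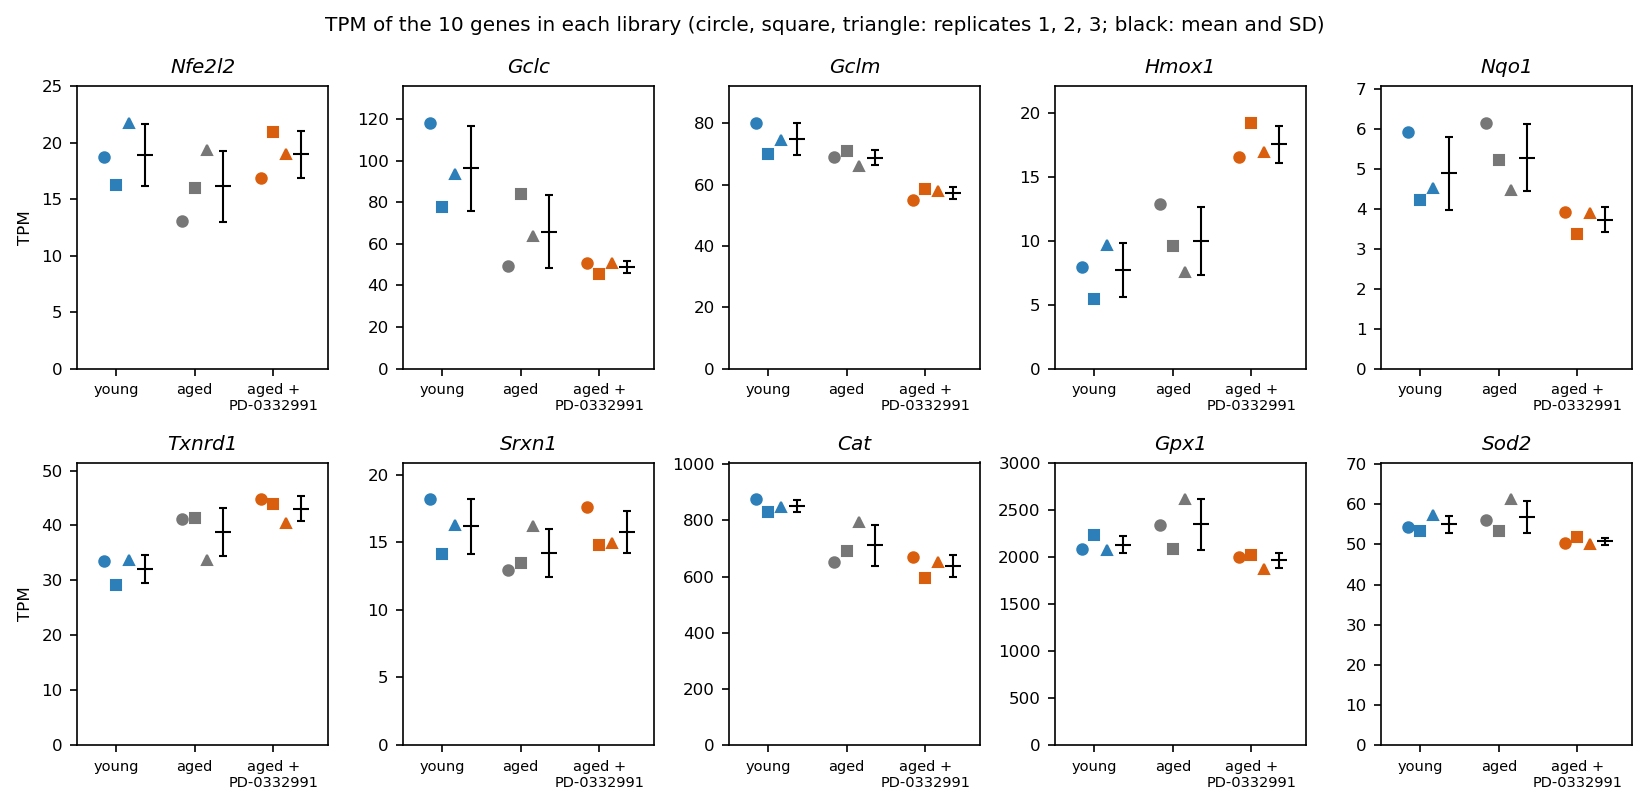
TPM (vertical axes, from 0) of the 10 genes in each of the 9 libraries, by group; circle, square and triangle are replicates 1, 2 and 3, and the black bars give the mean and SD. The 3 treated libraries sit above all untreated ones for Hmox1 (16.5 to 19.2 TPM) and below all untreated ones for Gclm (55.1 to 58.6 TPM).

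Counted by groups that do not overlap, 1 member lay higher and 1 lower in aged than in young livers (8.82% and 9.57% of all genes, 18.4% in either direction). In treated against aged livers 1 lay higher and 4 lower (5.72% and 16.7%, 22.4% in either direction). In treated against young livers 2 lay higher and 6 lower (9.55% and 24.4%, 33.9% in either direction). Taken over the 10 members, the median of the log2 fold changes was -0.04 for age, -0.16 for treated against aged and -0.12 for treated against young livers. Over all genes tested it was -0.012, -0.09 and -0.10. The excess of lower over higher calls among all genes depends on the scaling: treated against young had 263 higher and 436 lower, but 359 and 250 with median-of-ratios scaling and 308 and 310 with quantile normalization. Treated against aged had 62 higher and 85 lower, but 109 and 56, and 88 and 56, in the same order.

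**Figure D2:**
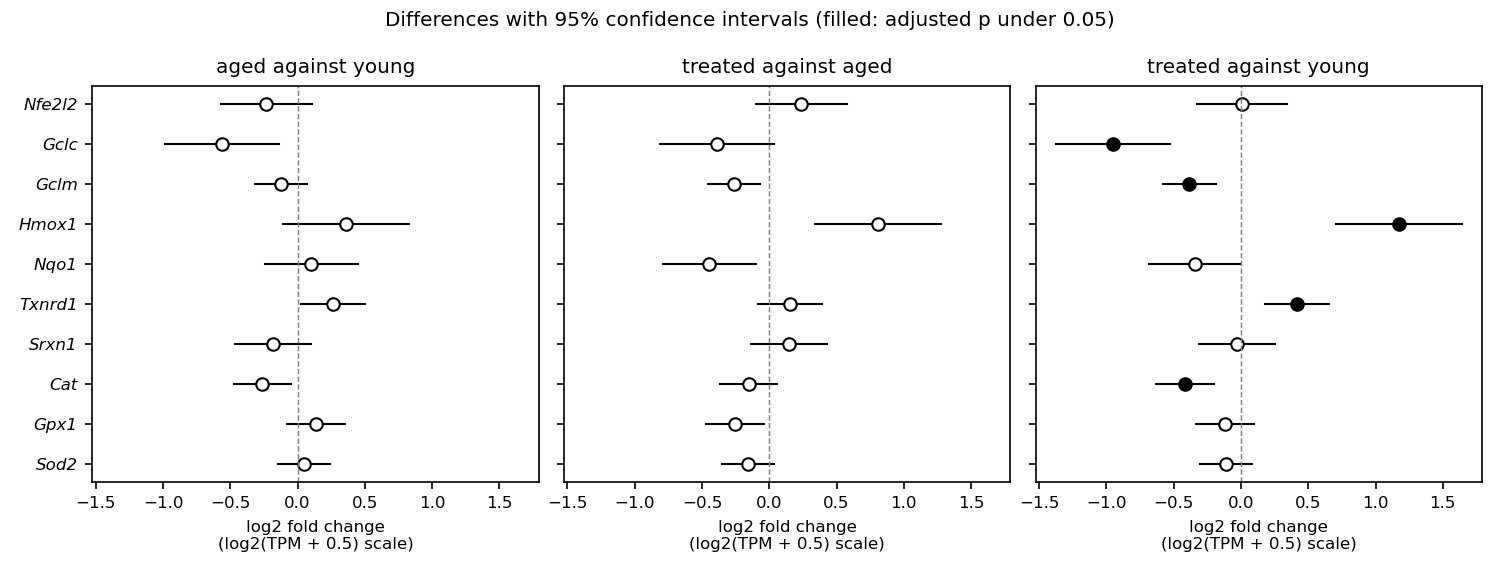
Log2 fold changes on the log2(TPM + 0.5) scale (horizontal axes) of the 10 genes in the 3 comparisons, with 95% confidence intervals; filled points have an adjusted p under 0.05. Filled points appear in treated against young livers alone, with Hmox1 (1.17) and Txnrd1 (0.42) to the right of 0 and Gclc (-0.95), Cat (-0.42) and Gclm (-0.38) to the left.

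Nfe2l2 encodes the transcription factor NRF2 (ENSMUSG00000015839.6, GRCm38 chromosome 2, 75675513 to 75704641, minus strand; positions here and below from GENCODE M21). It read 18.7, 16.3 and 21.8 TPM in young replicates 1, 2 and 3, 13.1, 16.002 and 19.3 TPM in aged and 16.9, 20.99 and 19.0 TPM in treated replicates. The groups overlapped in every comparison, and aged replicate 1 was the lowest of the 9 libraries. Young and treated livers had nearly the same mean (18.9 ± 2.74 and 19.0 ± 2.05 TPM, SD, n = 3), with a log2 fold change of 0.0074 and a 95% confidence interval of -0.33 to 0.34 (limma adjusted p = 0.982). For age the log2 fold change was -0.23 (interval -0.57 to 0.11, adjusted p = 0.510) and for treated against aged 0.24 (interval -0.10 to 0.58, adjusted p = 0.437). Without aged replicate 1 these were -0.093 and 0.101 (adjusted p = 0.878 and 0.769).

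The partners and controllers of NRF2 were a list of 11 genes, 10 of them tested. None was called in aged against young or treated against aged livers. An unadjusted p under 0.05 was reached by 1 and 4 of them (15.0% and 18.2% of all genes). In treated against young livers 1 rose, where 2.59% of all genes did, and 4 had an unadjusted p under 0.05 (24.8% of all genes). The median log2 fold change was -0.00036, 0.10 and 0.14 in these comparisons. The gene that rose was Mafk, a small MAF partner of NRF2, at 3.97 ± 0.432 TPM in young, 4.67 ± 0.363 in aged and 6.20 ± 0.898 in treated livers (SD, n = 3; log2 fold change 0.58 ± 0.14 SE, limma adjusted p = 0.0317). Leaving out young replicate 1 (0.0664), 2 (0.0733) or 3 (0.114) ended that call, as did leaving out treated replicate 2 (0.124) or 3 (0.0748) or the filter on low values (0.0507). Bach1, a repressor that competes with NRF2 for the same elements, was at 5.21 ± 0.779 TPM in young, 3.803 ± 0.903 in aged and 5.64 ± 0.832 in treated livers. It did not pass for age (log2 fold change -0.42, adjusted p = 0.307) or for treated against aged (0.53, adjusted p = 0.160). Maff, another small MAF gene, had a log2 fold change of 0.85 in treated against aged livers without passing (adjusted p = 0.152). Keap1, the inhibitor, was at 14.2 ± 0.932, 16.3 ± 1.60 and 16.4 ± 0.598 TPM in the 3 groups (adjusted p = 0.428 for age). Sqstm1, whose product p62 binds KEAP1, was at 191 ± 13.9 TPM in young and 229 ± 13.8 in treated livers (adjusted p = 0.111), and Dpp3, another KEAP1 binder, at 22.8 ± 2.00 and 19.0 ± 0.561 (0.175).

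Gclc and Gclm encode the catalytic and the modifier subunit of glutamate-cysteine ligase, the first and rate-limiting enzyme of glutathione synthesis. Gclc (ENSMUSG00000032350.9, chromosome 9, 77754535 to 77794485, plus strand) read 118, 77.5 and 93.4 TPM in young replicates 1, 2 and 3, 49.3, 84.1 and 63.8 in aged and 50.6, 45.4 and 50.6 in treated replicates. All treated libraries lay below all young ones, and aged libraries spanned the gap, with aged replicate 1 at the treated level. The mean fell from 96.3 ± 20.5 TPM in young to 48.9 ± 2.99 TPM in treated livers (SD, n = 3), a fall of 49.3% (log2 fold change -0.95 ± 0.19 SE, limma adjusted p = 0.0177). It did not pass when young replicate 1 (0.0664) or 3 (0.0617) or treated replicate 2 (0.0774) or 3 (0.0562) was left out, and the log2 fold change lay between -1.098 and -0.79 without any 1 library. For age the log2 fold change was -0.56 (interval -0.98 to -0.14, adjusted p = 0.207), and for treated against aged -0.39 (interval -0.82 to 0.03, adjusted p = 0.305). Without aged replicate 1 they were -0.37 and -0.58 (limma adjusted p = 0.484 and 0.121). With each library left out in turn, the age difference ranged from -0.75 to -0.37. The difference of treated against aged livers ranged from -0.58 to -0.20.

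Gclm (ENSMUSG00000028124.15, chromosome 3, 122245557 to 122270732, plus strand) varied much less between libraries. It read 80.1, 69.9 and 74.7 TPM in young, 69.1, 71.0 and 66.0 in aged and 55.1, 58.6 and 58.1 in treated replicates 1, 2 and 3. The treated libraries lay below all 6 untreated ones, while young and aged overlapped. The mean fell from 74.9 ± 5.10 TPM in young to 57.2 ± 1.87 TPM in treated livers (SD, n = 3; log2 fold change -0.38 ± 0.09 SE, limma adjusted p = 0.0289), and against aged livers (68.7 ± 2.50 TPM) the difference of -0.26 did not pass (interval -0.46 to -0.07, adjusted p = 0.157). Against young livers it did not pass when young replicate 1 (0.11) or 3 (0.0836) was left out, without treated replicate 1 (0.0840), 2 (0.0807) or 3 (0.0750), with median-of-ratios scaling (0.0938) and with quantile normalization (0.0613). Its annotation is touched by a same-strand pseudogene, Gm6061, and an opposite-strand transcript, Gm17494, and strand is not stated for these libraries. Both subunits were thus lower in treated than in young livers, by unequal amounts. The ratio of Gclc to Gclm TPM was 1.47, 1.11 and 1.25 in young, 0.713, 1.18 and 0.966 in aged and 0.918, 0.776 and 0.872 in treated replicates 1, 2 and 3. The catalytic subunit was the higher one in every young library and the lower one in every treated library.

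**Figure D3:**
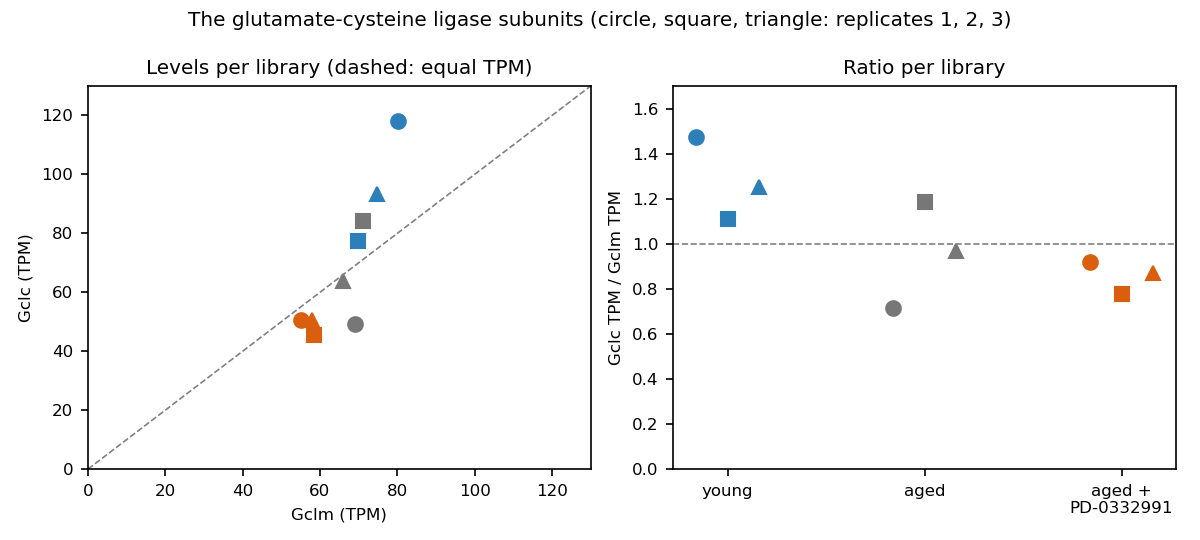
Left, TPM of Gclc (vertical axis) against Gclm (horizontal axis) in the 9 libraries, with the dashed line at equal TPM; right, their ratio by group. Young libraries lie above the line (ratios 1.11 to 1.47), treated ones below it (0.776 to 0.918), and aged ones on both sides (0.713 to 1.18).

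Other genes that make, recycle or use glutathione formed a list of 16, with 13 tested. None was called with age or in treated against young livers. In treated against aged livers 1 rose, where 0.61% of all genes did. For age, 2 of the 13 had an unadjusted p under 0.05 (15.0% of all genes). There were 5 in treated against aged and 5 in treated against young livers (18.2% and 24.8%). The medians were 0.10 for age, -0.09 for treated against aged and -0.03 for treated against young livers. The gene that rose was Chac1, an enzyme that breaks glutathione down and is induced by amino acid and endoplasmic reticulum stress. It read 0.902, 1.12 and 0.618 TPM in aged and 4.27, 4.24 and 2.99 TPM in treated replicates 1, 2 and 3, a low level without overlap (log2 fold change 1.65 ± 0.23 SE, limma adjusted p = 0.0156; 0.0716 without treated replicate 2). Young livers lay between, at 2.30 ± 0.844 TPM (adjusted p = 0.0731 for age and 0.113 for treated against young). Gpx7 and Glrx, a glutaredoxin gene, had log2 fold changes of -1.05 (adjusted p = 0.111) and -0.33 (0.130) in treated against aged livers. Gpx3, which encodes the plasma glutathione peroxidase, had one of 0.97 in treated against young livers (0.0621), and Glrx5, a mitochondrial glutaredoxin gene, one of 0.27 with age (0.240).

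Hmox1 encodes heme oxygenase 1, the inducible enzyme that opens heme to biliverdin, iron and carbon monoxide (ENSMUSG00000005413.8, chromosome 8, 75093621 to 75100589, plus strand). Its values were 7.91, 5.45 and 9.69 TPM in young, 12.8, 9.59 and 7.55 in aged and 16.5, 19.2 and 16.9 in treated replicates 1, 2 and 3. The treated libraries were above all 6 untreated ones, and the highest untreated library was aged replicate 1. From young to treated livers the mean rose 2.28-fold, from 7.68 ± 2.13 to 17.5 ± 1.46 TPM (SD, n = 3; log2 fold change 1.17 ± 0.21 SE, limma adjusted p = 0.0116). This was the largest change among the 10 members, and its call was lost without treated replicate 2 (0.0597) and held in the other 17 alternatives. Against aged livers (9.99 ± 2.66 TPM) the log2 fold change was 0.81 (interval 0.34 to 1.28), short of the threshold (adjusted p = 0.090). Without aged replicate 1 it was 0.998 and passed (0.0378), and over all the alternatives its adjusted p lay between 0.0378 and 0.264. For age it was 0.36 (interval -0.11 to 0.83, adjusted p = 0.462), and 0.17 without aged replicate 1 (0.813).

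Hmox1 is also expressed in macrophages and induced in inflammation, so markers of both were read beside it. Fewer cells of a type and less RNA per cell cannot be told apart in whole tissue. The 10 macrophage and Kupffer cell markers summed to 113 to 181 TPM in young, 107 to 158 in aged and 98.8 to 107 in treated libraries, and no marker was at 0 in all libraries. In treated against young livers 5 of the 10, Clec4f, Vsig4, Timd4, Cd68 and Csf1r, fell and none rose (4.29% and 2.59% of all genes). None was called in the other comparisons, where 2 of 10 had an unadjusted p under 0.05 for age and 4 for treated against aged (15.0% and 18.2% of all genes). The 16 acute phase genes summed to 9256 to 14409 TPM in young, 9227 to 33002 in aged and 22647 to 34252 in treated libraries. All 16 lay higher in treated than in young livers without overlap (9.55% of all genes did), and Lbp, Fgg and Crp rose by the adjusted test (log2 fold changes 1.36, 0.79 and 0.67). The call of Fgg was lost without each of the 6 young and treated libraries (adjusted p from 0.0802 to 0.136), with no filter (0.0756), with quantile normalization (0.132) and without trend and robust estimation (0.0546). Those of Lbp and Crp were lost without young replicate 1 (0.0560 and 0.0667) or 3 (0.0565 and 0.0611) and treated replicate 2 (0.0673 and 0.0693) or 3 (0.0508 and 0.0546). Lbp and Apcs had the smallest p of the list for age (adjusted p = 0.238 and 0.280) and Crp and Lbp for treated against aged (0.122 and 0.200), with no call in either. In each, 2 of 16 had an unadjusted p under 0.05 (15.0% and 18.2% of all genes). In treated against young livers Apcs (0.0529) and Serpina3n (0.0567) did not pass. Neutrophil markers were low, at 2.71 to 3.59 TPM in young, 9.03 to 25.2 in aged and 23.9 to 33.5 in treated libraries as a sum of 8 genes. Of these S100a8, S100a9 and Retnlg were tested, and all 3 rose in treated against young livers, where 2.59% of all genes did. Those 3 were not called in the other comparisons. All 3 had an unadjusted p under 0.05 for age and for treated against aged (15.0% and 18.2% of all genes). Calls of cell type markers were not repeated in the alternatives. The other 5 listed genes, made mainly in neutrophil precursors, stayed low: the highest values over the 9 libraries were 0.0526 TPM for Mpo, 0.0679 for Ngp, 0.0514 for Ltf, 0.588 for Camp and 0.493 for Elane. The part of macrophages, and of the acute phase and neutrophil signal, in the Hmox1 result was not tested.

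**Figure D4:**
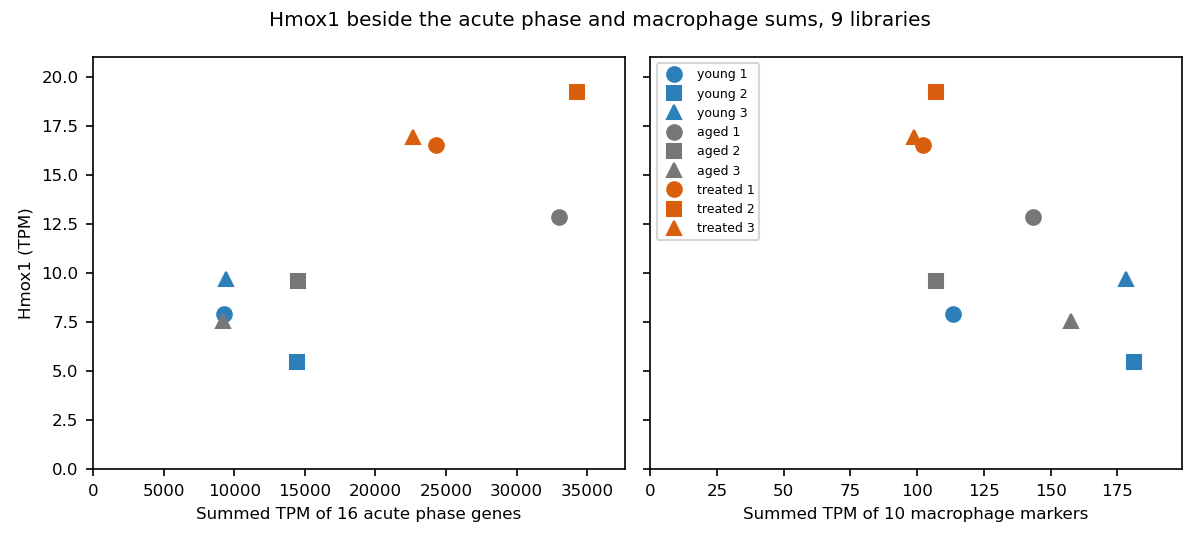
Hmox1 TPM (vertical axes) in the 9 libraries beside the summed TPM of 16 acute phase genes (left) and of 10 macrophage markers (right). The treated libraries combine Hmox1 of 16.5 to 19.2 TPM with acute phase sums of 22647 TPM or more and macrophage sums of 107 TPM or less, while aged replicate 1 has an acute phase sum of 33002 TPM at 12.8 TPM of Hmox1.

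The genes that act next to Hmox1 did not follow it. Of 6 genes for heme oxygenase 2, the biliverdin reductases, ferritin and a heme transporter, all tested, none was called in any comparison. An unadjusted p under 0.05 was reached by 0, 1 and 0 of them (15.0%, 18.2% and 24.8% of all genes). The medians were 0.10, -0.14 and -0.04. Hmox2, the constitutive heme oxygenase, was at 34.0 ± 1.151 TPM in young, 39.1 ± 0.952 in aged and 31.3 ± 5.56 in treated livers (adjusted p = 0.483 for age and 0.189 for treated against aged). Fth1, the ferritin heavy chain that stores released iron, was at 1698 ± 116, 1876 ± 96.8 and 1749 ± 60.8 TPM in these groups (0.476 for age). Blvra, a biliverdin reductase gene, was at 13.4 ± 2.48 TPM in young and 10.7 ± 0.684 in treated livers (0.212). Erythroid markers summed to 343 to 369 TPM in young, 291 to 787 in aged and 222 to 359 in treated libraries. None of the 6 tested was called in any comparison. An unadjusted p under 0.05 was reached by 0, 3 and 1 of them (15.0%, 18.2% and 24.8% of all genes). Hba-a1 and Hba-a2 read 0.0248 and 192 TPM in aged replicate 1, but 83.1 and 0.0098 in aged replicate 2. The assignment of reads between such close copies is uncertain, so tests of single globin genes say little.

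Nqo1 encodes a quinone reductase that is widely used as a readout of NRF2 (ENSMUSG00000003849.8, chromosome 8, 107388225 to 107403206, minus strand). It was the least abundant of the 10, with 5.93, 4.22 and 4.53 TPM in young, 6.15, 5.21 and 4.48 in aged and 3.91, 3.37 and 3.90 in treated replicates 1, 2 and 3. Every treated library was below every untreated one, by a small margin. The difference did not pass against aged (log2 fold change -0.44, interval -0.79 to -0.10, limma adjusted p = 0.171) or young livers (-0.34, interval -0.69 to 0.0025, adjusted p = 0.204), and for age it was 0.10 (interval -0.24 to 0.45, adjusted p = 0.817), and -0.0037 without aged replicate 1 (0.996). Nqo1 and Hmox1, both NRF2 targets, thus lay on opposite sides of the untreated libraries in treated livers. Nqo1 was not called against either untreated group, and Hmox1 was not called against aged livers (limma adjusted p = 0.090).

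The other conjugation and export genes linked to NRF2 were a list of 24, with 22 tested. With age 2 rose and none fell (0.65% and 0.453% of all genes). In treated against aged livers 2 fell and none rose (0.837% and 0.61% of all genes), and in treated against young livers 3 fell and 1 rose (4.29% and 2.59%). The medians were 0.06, -0.27 and -0.15, and in treated against aged livers 20 of the 22 lay below 0, as did 66.7% of all genes tested. Gstp1, a glutathione transferase gene, fell from 1837 ± 47.9 TPM in aged to 1040 ± 172 TPM in treated livers (SD, n = 3; log2 fold change -0.83 ± 0.14 SE, limma adjusted p = 0.0193) and was lower than in young livers too (1777 ± 306 TPM, adjusted p = 0.0103). The first call was lost without aged replicate 2 (0.0582), treated replicate 1 (0.0512) or 2 (0.0792) or the filter (0.0564), and the second without treated replicate 2 (0.0517). Ugt2b35, a glucuronosyltransferase gene, fell from 76.5 ± 12.8 to 45.2 ± 1.59 TPM against aged livers (adjusted p = 0.0342) and was at 86.3 ± 16.1 TPM in young ones (adjusted p = 0.00713). The call against young livers held in all 18 alternatives. That against aged livers held in 7, and its adjusted p without aged replicate 2 or treated replicate 1, 2 or 3 was 0.109, 0.0937, 0.114 and 0.103, without young replicate 1 0.0605, and with median-of-ratios scaling 0.0514. It was 0.0834 with no filter, 0.0643 with quantile normalization, 0.0634 without trend and robust estimation and 0.0557 with only the compared groups in the fit. Ephx1, the microsomal epoxide hydrolase, fell from 337 ± 64.4 TPM in young to 197 ± 20.6 TPM in treated livers (adjusted p = 0.0155; 0.0656 without young replicate 1, 0.0617 without young replicate 3 and 0.0693 without treated replicate 2).

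Gstp2 and Gsta2, 2 further glutathione transferase genes, rose with age. Gstp2 went from 10.1 ± 2.60 to 34.7 ± 6.07 TPM (limma adjusted p = 0.0133; 0.0514 without young replicate 1) and stood at 22.1 ± 6.35 TPM in treated livers, above young (adjusted p = 0.0318). The latter did not pass when young replicate 1 (0.0963), 2 (0.0682) or 3 (0.0526), treated replicate 1 (0.0844) or 3 (0.104) or the filter (0.0559) was left out. Gsta2 went from 38.6 ± 3.69 to 70.6 ± 11.1 TPM (adjusted p = 0.0199), a call lost without young replicate 1 (0.0760), 2 (0.0896) or 3 (0.0576), aged replicate 2 (0.0649) or the filter (0.0562), and was at 46.6 ± 7.18 TPM in treated livers (adjusted p = 0.0661 against aged). Gstp1 and Gstp2 are close copies, as are genes of the Gsta group, so the assignment of reads between them is uncertain. Among genes that did not pass, Aox1 and Osgin1 had log2 fold changes of -0.58 and 0.67 with age (adjusted p = 0.211 and 0.269). Ces2g had one of -0.52 in treated against aged livers (0.0608), and Aox1 and Cbr1, a carbonyl reductase gene, had -0.70 and -0.46 in treated against young ones (0.0615 and 0.0781).

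**Figure D5:**
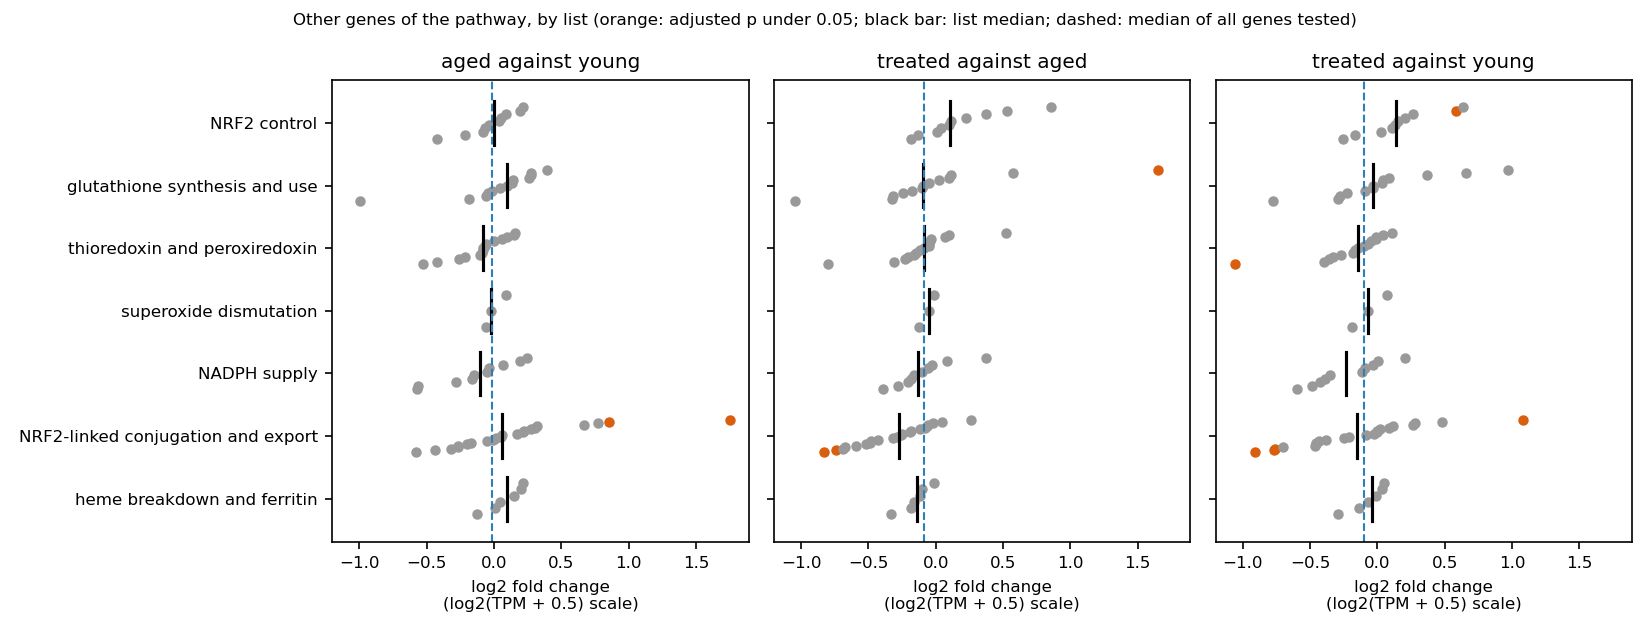
Log2 fold changes on the log2(TPM + 0.5) scale (horizontal axes) of the tested genes in 7 pathway lists, for the 3 comparisons; orange points have an adjusted p under 0.05, black bars are list medians and the dashed line is the median of all genes tested. Most genes lie near the dashed line, and the conjugation and export list holds called genes on both sides of 0, with a median of -0.27 in treated against aged livers.

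Txnrd1 encodes the cytosolic thioredoxin reductase, a selenium enzyme that keeps thioredoxin reduced (ENSMUSG00000020250.10, chromosome 10, 82833951 to 82897712, plus strand). It read 33.5, 29.2 and 33.7 TPM in young, 41.2, 41.3 and 33.7 in aged and 44.8, 44.0 and 40.4 in treated replicates 1, 2 and 3. Young libraries were lower than all treated ones, and aged replicate 3 was level with the highest young library. Its mean in young livers, 32.1 ± 2.52 TPM, rose to 43.1 ± 2.30 TPM in treated livers (SD, n = 3; log2 fold change 0.42 ± 0.11 SE, limma adjusted p = 0.0418). The call was lost without each of the 6 young and treated libraries in turn (adjusted p from 0.0770 to 0.136), with no filter (0.0693), with quantile normalization (0.0690) and without trend and robust estimation (0.0662). Its direction was the same in all 18 alternatives. For age the log2 fold change was 0.26 (interval 0.02 to 0.50, adjusted p = 0.287), and for treated against aged 0.16 (interval -0.08 to 0.39, adjusted p = 0.479). With each library left out in turn, the age difference ranged from 0.20 to 0.36 (limma adjusted p from 0.0656 to 0.575). The difference of treated against aged livers ranged from 0.06 to 0.20 (0.409 to 0.803). Eid3, a gene within an intron of Txnrd1 on the same strand, reached at most 0.382 TPM.

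Srxn1 encodes sulfiredoxin, which repairs over-oxidised peroxiredoxins (ENSMUSG00000032802.8, chromosome 2, 152105516 to 152111376, plus strand). Of the printed windows only its promoter holds 2 matches, and none of its differences between groups was called. It read 18.2, 14.1 and 16.3 TPM in young, 13.0, 13.5 and 16.2 in aged and 17.6, 14.8 and 14.96 in treated replicates 1, 2 and 3. All groups overlapped, with log2 fold changes of -0.18 for age (interval -0.46 to 0.10; -0.12 without aged replicate 1), 0.15 for treated against aged (-0.13 to 0.43; 0.087 without aged replicate 1) and -0.03 for treated against young (-0.31 to 0.25; limma adjusted p = 0.547, 0.581 and 0.906).

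The 15 other thioredoxin and peroxiredoxin genes were all tested. None was called with age or in treated against aged livers. An unadjusted p under 0.05 was reached by 1 and 2 of them (15.0% and 18.2% of all genes). In treated against young livers 1 fell and none rose (4.29% and 2.59% of all genes), and 4 had an unadjusted p under 0.05 (24.8%). The medians were -0.08, -0.09 and -0.14. Txnrd3, a thioredoxin reductase gene best known from testis, fell from 3.18 ± 0.167 to 1.26 ± 0.153 TPM (SD, n = 3; log2 fold change -1.06 ± 0.18 SE, limma adjusted p = 0.00907), opposite in direction to Txnrd1. This call held in all 17 alternatives that tested the gene. Against aged livers (2.63 ± 0.742 TPM) it did not pass (adjusted p = 0.0556). Prdx4, the peroxiredoxin of the endoplasmic reticulum, was at 121 ± 17.0, 104 ± 8.35 and 94.1 ± 5.08 TPM in young, aged and treated livers (0.0779 for treated against young). Sesn1, a stress-induced sestrin gene, was at 4.19 ± 0.654 TPM in young and 3.03 ± 0.0461 in treated livers (0.153). Txnip, the thioredoxin inhibitor, was at 19.3 ± 5.77, 12.8 ± 1.098 and 18.7 ± 3.13 TPM in young, aged and treated livers (0.260 for age and 0.213 for treated against aged).

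Cat encodes catalase, the peroxisomal enzyme that splits hydrogen peroxide (ENSMUSG00000027187.10, chromosome 2, 103453849 to 103485160, minus strand). It read 875, 830 and 846 TPM in young, 650, 690 and 792 in aged and 668, 593 and 652 in treated replicates 1, 2 and 3. Young libraries were above all 6 older ones, and aged and treated libraries overlapped. The mean fell from 851 ± 22.5 TPM in young to 638 ± 39.6 TPM in treated livers (SD, n = 3), a fall of 25.02% (log2 fold change -0.42 ± 0.10 SE, limma adjusted p = 0.0290). That call was lost without each of the 6 young and treated libraries in turn (adjusted p from 0.0529 to 0.118), with median-of-ratios scaling (0.0647) and without trend and robust estimation (0.0517), with the direction unchanged in each. For age the log2 fold change was -0.26 (interval -0.48 to -0.05, adjusted p = 0.239), and for treated against aged -0.15 (interval -0.37 to 0.06, adjusted p = 0.428). With each library left out in turn, the age difference ranged from -0.34 to -0.20 (limma adjusted p from 0.0541 to 0.541). The difference of treated against aged livers ranged from -0.21 to -0.07 (0.311 to 0.749).

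Gpx1 encodes the main cytosolic glutathione peroxidase, a selenium enzyme (ENSMUSG00000063856.7, chromosome 9, 108338903 to 108340343, plus strand). It read 2081, 2232 and 2071 TPM in young, 2344, 2080 and 2613 in aged and 1995, 2024 and 1868 in treated replicates 1, 2 and 3. Treated libraries were the lowest, and aged replicate 3 the highest. No comparison passed: the log2 fold change was 0.13 for age (interval -0.08 to 0.35, limma adjusted p = 0.559), -0.25 for treated against aged (interval -0.47 to -0.04, adjusted p = 0.210) and -0.12 for treated against young (interval -0.33 to 0.10, adjusted p = 0.498). With quantile normalization the age difference turned to -0.06 and that of treated against young livers became -0.39 and passed (adjusted p = 0.0333).

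Sod2 encodes the manganese superoxide dismutase of mitochondria, a gene that inflammatory signals can induce (ENSMUSG00000006818.5, chromosome 17, 13006846 to 13040063, plus strand). It read 54.3, 53.3 and 57.3 TPM in young, 56.0, 53.4 and 61.2 in aged and 50.5, 51.7 and 50.1 in treated replicates 1, 2 and 3. The treated libraries, with acute phase sums of 22647 to 34252 TPM, had the lowest Sod2. Aged replicate 1, with an acute phase sum of 33002 TPM, read 56.0 TPM of Sod2. A link between the acute phase genes and Sod2 was not tested. The differences were small and none passed: 0.05 for age (interval -0.15 to 0.24), -0.16 for treated against aged (-0.35 to 0.03) and -0.11 for treated against young livers (-0.31 to 0.08) on the log2 scale (limma adjusted p = 0.857, 0.359 and 0.459). Its within-group SD of 0.067 on the log2 scale was smaller than that of all but 2.05% of genes tested.

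Of the other 3 genes of superoxide dismutation, Sod1, Sod3 and the copper chaperone Ccs, none was called in any comparison. In each, 0 had an unadjusted p under 0.05 (15.0%, 18.2% and 24.8% of all genes). The medians were -0.03, -0.05 and -0.07. Sod1, the cytosolic enzyme, was at 1727 ± 67.7 TPM in young, 1700 ± 147 in aged and 1643 ± 91.7 in treated livers (limma adjusted p = 0.827 for treated against aged). Ccs was at 175 ± 14.97, 168 ± 14.5 and 154 ± 7.20 TPM (0.273 for treated against young), and Sod3, the extracellular enzyme, at 13.7 ± 1.76, 14.6 ± 1.11 and 14.5 ± 2.00 TPM (0.820 for age). The 10 genes of NADPH supply, which glutathione and thioredoxin reductases draw on, were all tested and none was called. An unadjusted p under 0.05 was reached by 3, 3 and 4 of them (15.0%, 18.2% and 24.8% of all genes). Their medians were -0.10, -0.13 and -0.23. Idh1, a cytosolic NADPH source, was at 207 ± 9.56, 171 ± 24.0 and 159 ± 15.9 TPM in young, aged and treated livers (0.287 for age and 0.0690 for treated against young). G6pdx, which opens the pentose phosphate pathway, was at 1.92 ± 0.227 TPM in young and 1.17 ± 0.440 in aged livers (0.282). Tkt, a later enzyme of that pathway, was at 41.4 ± 3.996 TPM in aged and 31.8 ± 6.54 in treated livers (0.193). The NAD kinase genes Nadk and Nadk2 went separate ways without passing, Nadk with a log2 fold change of 0.37 in treated against aged (0.112) and Nadk2 with -0.36 in treated against young livers (0.0621).

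Other cell types were read through their markers. These were 6 stellate cell markers, 6 sinusoidal endothelial markers and 2 tested of 5 cholangiocyte markers. With age Lyve1 (endothelial) fell and Sox9 (cholangiocyte) rose, where 0.453% and 0.65% of all genes did. None was called in the other comparisons. In this order of cell types, 1, 2 and 1 had an unadjusted p under 0.05 for age (15.0% of all genes). The counts were 0, 1 and 1 in treated against aged and 0, 1 and 2 in treated against young livers (18.2% and 24.8%). Sums were 56.5 to 93.3 TPM for stellate and 55.8 to 77.7 for endothelial markers over the 9 libraries. Cholangiocyte markers summed to 17.1 to 20.9 TPM in young, 10.3 to 22.6 in aged and 8.94 to 14.2 in treated libraries. Among 7 tested hepatocyte markers, Ttr fell in treated against young livers (limma adjusted p = 0.0357), where 4.29% of all genes did, and 6 were not called. Of the 7, 5 lay below 0 and 2 above. The 2 above 0, Tat (log2 fold change 0.96) and Hnf4a (0.56), lay higher without overlap (limma adjusted p = 0.205 and 0.153). The part of these cell types in the results above was not tested.

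For the 5 called members, the 3 most similar of 5656 other genes of 5 TPM or more were taken by Pearson's r over the 9 libraries on the log2 scale. The 9 points share 3 groups, and the r values are descriptions. Gclc was most like Cyp2j9 (0.971), Als2cl (0.969) and Znrf2 (0.963), and Gclm like Cyp2d9 (0.968), Slc40a1 (0.965) and Bcl2l2 (0.959). Hmox1 was most like Peo1 (0.965), Hip1r (0.960) and Ttpal (0.944). Txnrd1 was most like the NF-kB subunit gene Rela (0.969), Rhob (0.967) and Sf1 (0.964), and Cat like Cldn1 (0.981), Mug-ps1 (0.979) and the steroid dehydrogenase gene Hsd3b5 (0.978). Among the members themselves, Hmox1 and Txnrd1 rose and fell together over the libraries (r = 0.902), as did Gclc and Gclm (0.870) and Gclc and Cat (0.860), while Cat ran opposite to Txnrd1 (-0.898) and Hmox1 (-0.856). Nfe2l2 had its largest r among members with Srxn1 (0.568).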

How the data were processed

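Per the submitters' processing notes, the authors estimated abundance with kallisto on build mm10. Its version and annotation, and how transcripts were summed, are items not given in the sources used here. Per the labels' protocols the libraries were paired-end Illumina TruSeq preparations. The deposited values are TPM, 1 table per library, and keep no depth, so no counting intervals are given. Of 23444 rows, 4 with date-like symbols that stood for more than 1 gene were left out. Genes with 1 TPM or more in at least 3 libraries (10161) were compared as log2(TPM + 0.5), which understates changes of low genes. All 9 libraries were fitted with group as the only term in limma 3.58.1 (R 4.3.3, trend and robust estimation), tested two-sided, with Benjamini-Hochberg adjustment over all genes tested and calls at an adjusted p under 0.05. The steps were tested on simulated data.

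The members and lists were chosen with earlier results of these data known. Of 154 places in the 15 lists, 151 were found by symbol, 1 by an older synonym (Emr1 for Adgre1), and 2 were not listed. Named are all members and, per pathway list and comparison, up to 4 called genes by size and 2 others by p; likeness skipped genes with predicted or clone names. The likeness result for Nfe2l2 is not reported here. Other genes were named after their values were seen. Alternatives changed the pseudocount, the filter, the scaling, the limma options, the groups in the fit and the replicate block, or left out each library; those on called pathway genes were added after seeing the data. The replicate numbers are not stated to pair the libraries, and a check of pairing is given below.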

Additional observations from a re-analysis of the deposited data

How the results depend on the processing

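Over 18 alternatives, 497 of 540 values of a member in a comparison kept their direction and side of the threshold. Most of the 540 belong to differences that were not called in the main fit. A call was lost in 31, all among the 5 members called in treated against young livers. In 2 a call appeared, and in 10 the direction turned. Of the 5 members called in treated against young livers, 3 remained with median-of-ratios scaling (Hmox1, Gclc, Txnrd1), without trend and robust estimation (Hmox1, Gclc, Gclm), with the replicate block or with quantile normalization (Hmox1, Gclc, Cat in each; the latter added Gpx1). With no filter 4 remained (not Txnrd1), and 0 to 5 were called when 1 library was left out. In treated against aged livers leaving out 1 library gave 0 or 1 call (1 without aged replicate 1, Hmox1), and in aged against young livers 0 throughout. Over all genes, the 112 called with age became 62 with no filter, 66 without trend and robust estimation, 49 with only the compared groups, and 16 (without young replicate 1) to 696 (without aged replicate 3) on leaving out 1 library. The 147 called in treated against aged livers became 29, 60 with the replicate block, 25 with only the compared groups, and 7 (without treated replicate 2) to 392 (without aged replicate 3). The 699 called in treated against young livers became 1282 with only the compared groups, and 153 (without treated replicate 2) to 1263 (without aged replicate 3).

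Directions that turned were all uncalled. Srxn1 in treated against young livers had a log2 fold change of 0.071 with median-of-ratios scaling, 0.0087 with quantile normalization, and -0.12 to 0.053 on leaving out 1 library (above 0 without young replicate 1 and without treated replicate 2 or 3, at 0.0101 and 0.0039). Nfe2l2 there ranged from -0.093 to 0.11 (below 0 without young or treated replicate 2). With age, Gpx1 was at -0.056 with quantile normalization. Nqo1 ranged from -0.0037 (without aged replicate 1) to 0.24 and Sod2 from -0.0072 (without aged replicate 3) to 0.091. The cause was not tested.

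The replicate numbers showed no clear pairing: correlations of same-numbered deviations were -0.22 to 0.17, and 9 of 18 correlated best with their own number. With 3 libraries a group this check cannot exclude shared handling by number. With the block, 91, 60 and 492 genes were called, and 0, 0 and 3 members. In treated against young livers the block took Gclm to an adjusted p of 0.0564, Txnrd1 to 0.0639, Mafk to 0.0538, Gstp2 to 0.0566 and Fgg to 0.0506, and in treated against aged livers Ugt2b35 to 0.0793. It changed no other call among the members and the called pathway genes. TPM without counts leaves depth unknown, and 3 libraries a group limit every interval.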
